A study of Caenorhabditis elegans with 18 samples.

Results

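Transcript levels in nhr-10 mutant Caenorhabditis elegans were compared with those in wild type while both were fed propionate in the presence of vitamin B12. The comparison rests on 4 of the 18 libraries of the series, 2 from each genotype, taken by their genotype and treatment labels, and on all 20953 genes of the deposited table. The mutants carry the nhr-10 deletion allele tm4695 (the labels name no strain for them), and the wild type is the laboratory strain N2. Each library came from about 3000 whole animals collected at the L4 stage, after L1 larvae had been arrested for 18 h to synchronize them. Both groups spent 48 h on plates that held vitamin B12 at 20 nM together with propionate at 40 mM. The mutant and wild type animals on 20 nM B12 alone, the untreated ones, and nhr-68 mutants (deletion gk708, strain VC1527) on B12 with propionate, 2 libraries each, are used only where they bear on this comparison. The labels do not say whether the 2 libraries of a group came from separate cultures. The p-values thus measure only the spread between libraries of the same group, pooled over all 9 groups of the series, which may be technical.

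Cells form propionate, a small fatty acid, while breaking down valine, isoleucine, methionine and fats with an odd number of carbons, and it is toxic when it builds up. The canonical pathway carboxylates propionyl-CoA and needs vitamin B12 for its mutase, while a B12-independent shunt oxidizes propionyl-CoA to acetyl-CoA through acyl-CoA dehydrogenase, enoyl-CoA hydratase, hydrolase and dehydrogenase steps. NHR-10 and NHR-68 are nuclear hormone receptors, ligand-regulated transcription factors, known in this animal for switching the shunt genes on when propionate persists.

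Levels are FPKM, in which the fragments of a gene are divided by its length and by the library's total, so they can be set side by side between genes. Differences are log2 differences of FPKM + 1, nhr-10 mutants minus wild type, with the standard error (SE) of a limma fit over all 9 groups of the series. The added 1 understates the change of genes near or below 1 FPKM. A gene is called higher or lower where its Benjamini-Hochberg adjusted p, over the 15575 genes that reached 1 FPKM in at least 2 libraries, is under 0.05. Estimated depth was about 13100000 and 13000000 fragments in the mutant libraries, against 13000000 in each wild type library, and replicates correlated at r = 0.9695 in the mutants and 0.9713 in wild type across genes.

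The nhr-10 transcript itself was at 9.29 and 10.33 FPKM in the mutants, against 33.45 and 14.88 FPKM in wild type. Both mutant libraries were below both wild type libraries, but the difference of -1.12 ± 0.316 (SE) missed the threshold (limma adjusted p = 0.0518). A deletion allele can leave a transcript, and a value for the whole gene does not show which exons it came from. The nhr-68 transcript, from the gene of the second receptor, was at 10.75 and 18.19 FPKM in nhr-10 mutants, against 53.54 and 55.94 FPKM in wild type, a fall of -1.89 ± 0.381 (limma adjusted p = 0.0107). That call was lost without mutant replicate 1 (adjusted p = 0.0522) or without wild type replicate 2 (adjusted p = 0.0729). The 9 other regulators on the list, which includes nhr-49, nhr-80, mdt-15 and sbp-1 of lipid metabolism and nhr-114 of the B12 and methionine response, had 0 members called by limma, at differences of -0.25 (nhr-80) to 0.81 (nhr-8), and 1 with an unadjusted p under 0.05. Over all 15575 genes tested, 3694 had an unadjusted limma p under 0.05.

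All 5 shunt genes were lower in nhr-10 mutants, where 1.59% of all genes tested were called lower and 5.6% higher. acdh-1, the acyl-CoA dehydrogenase of the first step (chromosome I, 6497436 to 6499560, build WBcel235), was at 0.16 and 0.44 FPKM in the mutants, against 2070.33 and 1397.17 FPKM in wild type. It was at the edge of detection in both mutant libraries, a difference of -10.36 ± 0.315 (limma adjusted p = 2.13e-09). ech-6, the enoyl-CoA hydratase, was at 120.26 and 121.75 FPKM in the mutants and 898.16 and 843.35 FPKM in wild type (-2.84 ± 0.179, adjusted p = 2.89e-06). hach-1, the hydrolase that releases 3-hydroxypropionate, was at 50.42 and 58.49 FPKM in the mutants and 477.83 and 454.00 FPKM in wild type (-3.08 ± 0.22, adjusted p = 9.34e-06). In both genes the mutant libraries lay close together and far below either wild type library. hphd-1, the dehydrogenase that oxidizes 3-hydroxypropionate, was at 16.36 and 24.46 FPKM in the mutants and 430.94 and 327.00 FPKM in wild type (-4.16 ± 0.238, adjusted p = 1.30e-06). alh-8, the aldehyde dehydrogenase of the last step, kept the highest level of the pathway in the mutants, at 234.13 and 296.79 FPKM against 581.67 and 564.65 FPKM in wild type, and had the smallest fall (-1.12 ± 0.133, adjusted p = 4.56e-04). The groups overlapped in none of the 5 genes. The 5 stayed called when any of the 4 libraries was left out. With 2 axes of developmental stage in the fit acdh-1, ech-6, hach-1 and hphd-1 stayed called, while the call of alh-8 turned on which genes made the axes: its adjusted p was 0.0495 after genes that encode no collagen had been removed from the collagen list, and 0.0539 with that list as first matched. In a fit of the 4 libraries alone hach-1, acdh-1 and ech-6 stayed called.

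The shunt genes were also set against their level on B12 alone in each genotype. In the mutants acdh-1 was at 0.07 and 0.25 FPKM on B12 alone, so the addition of propionate moved it by 0.16 on the log2 scale (95% interval -0.52 to 0.84), whereas in wild type it stood at 65.45 and 116.05 FPKM on B12 alone and the addition moved it by 4.27 (3.59 to 4.95). The propionate response of hach-1 was 0.12 (-0.36 to 0.60) in the mutants and 2.78 (2.30 to 3.25) in wild type. That of ech-6 was 0.39 (0.00 to 0.78) in the mutants and 2.31 (1.92 to 2.70) in wild type, and that of hphd-1 was 0.31 (-0.21 to 0.82) in the mutants and 2.24 (1.72 to 2.75) in wild type. alh-8 responded by 0.17 (-0.12 to 0.46) in the mutants and by 0.94 (0.65 to 1.23) in wild type. The limma test of the difference between the responses called all 5 genes, where it called 8.49% of all genes, with adjusted p-values between 0.00183 (acdh-1) and 0.0358 (alh-8). With each of the 8 libraries left out in turn, acdh-1, hach-1 and ech-6 stayed called, hphd-1 was lost without wild type replicate 2 on B12 (adjusted p = 0.0638), and alh-8 stayed called only without wild type replicate 1 on propionate (0.0434) or mutant replicate 2 on B12 (0.0376). In a fit of those 8 libraries alone, hach-1 was the one shunt gene whose response difference was called (0.0365), with the other 4 at 0.0565 (ech-6) to 0.15 (alh-8). With the stage axes acdh-1 and hphd-1 were called (both 0.00741), and hach-1 (0.0545), ech-6 (0.135) and alh-8 (0.996) were not. These responses share the propionate libraries with the comparison above and are not separate evidence for it.

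**Figure D1:**
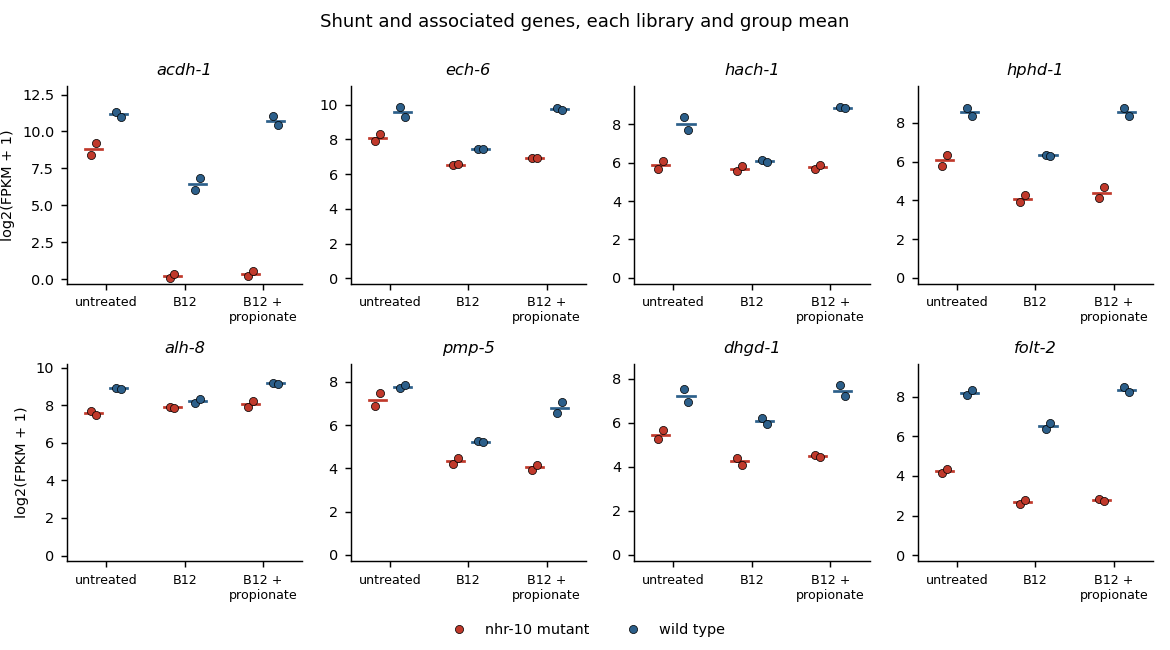
Levels of 8 genes, the 5 shunt genes and 3 others named in the text, as log2(FPKM + 1) in each library (points) with the mean of the 2 libraries (bars), for nhr-10 mutants (red) and wild type (blue) in the untreated, B12 and B12 with propionate groups. In wild type the points for hphd-1, hach-1, ech-6 and acdh-1 stand higher on B12 with propionate than on B12 alone, and in nhr-10 mutants they stay near the B12 level.

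In the untreated animals, in libraries that the propionate comparison does not use, the mutants' acdh-1 was not near 0. It was at 333.51 and 590.58 FPKM in untreated nhr-10 mutants, against 2548.59 and 2058.19 FPKM in untreated wild type (-2.36, limma adjusted p = 0.00222). All 5 shunt genes were called lower in untreated mutants, against 0.295% of all genes called lower there. On B12 alone, where 3.15% of all genes were called lower, acdh-1 (-6.25, adjusted p = 8.90e-07), hphd-1 (-2.23, adjusted p = 7.67e-04) and ech-6 (-0.92, adjusted p = 0.0111) were called lower in the mutants, while hach-1 (-0.42, adjusted p = 0.251) and alh-8 (-0.34, adjusted p = 0.123) were not. hach-1 and alh-8 were thus called lower untreated and with propionate only. The 5 untreated calls held with each of the 4 untreated libraries left out in turn. On B12 alone acdh-1 and hphd-1 held likewise, and ech-6 was lost without mutant replicate 1 (adjusted p = 0.106) or wild type replicate 2 (0.0829).

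Part of the canonical, B12-dependent pathway was higher. Of 7 genes tested, 3 were called higher in nhr-10 mutants and none lower, where 5.6% of all genes were called higher, with a list median of 0.42 against 0.02 for all genes. pccb-1, a subunit of propionyl-CoA carboxylase, was at 129.78 and 159.25 FPKM in the mutants and 73.54 and 59.56 FPKM in wild type (1.11 ± 0.173, limma adjusted p = 0.00238). Its partner subunit pcca-1 was at 152.70 and 191.27 FPKM in the mutants and 102.20 and 85.16 FPKM in wild type (0.87 ± 0.158, adjusted p = 0.00633). The mutant libraries were above the wild type libraries for both subunits. mmcm-1, the B12-dependent mutase, was at 61.72 and 66.43 FPKM in the mutants and 48.73 and 44.86 FPKM in wild type (0.45 ± 0.114, adjusted p = 0.0339). pccb-1 stayed called when any of the 4 libraries was left out, whereas pcca-1 and mmcm-1 were lost without mutant replicate 2 (adjusted p = 0.107 and 0.286) or wild type replicate 2 (0.0734 and 0.223), and mmcm-1 also without wild type replicate 1 (0.0632). With the stage axes or in the fit of the 4 libraries alone, 0 of the 7 were called by limma. The epimerase mce-1 (0.17) and the B12-handling genes mmaa-1 (-0.18), mmab-1 (0.42) and cblc-1 (0.20) were not called.

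Genes beside the shunt fell as far as its members. dhgd-1, a dehydrogenase of the D-2-hydroxyglutarate that the hphd-1 reaction yields, was at 22.14 and 20.67 FPKM in nhr-10 mutants and 207.40 and 146.67 FPKM in wild type (-2.97 ± 0.223, limma adjusted p = 1.10e-05). pmp-5, an ABC transporter, was at 14.37 and 16.91 FPKM in the mutants and 93.99 and 132.48 FPKM in wild type (-2.76 ± 0.253, adjusted p = 5.28e-05). folt-2, a member of the folate transporter family, was at 6.06 and 5.72 FPKM in the mutants and 355.36 and 298.51 FPKM in wild type (-5.57 ± 0.2, adjusted p = 8.65e-09). Its mutant libraries were as low on B12 alone, at 4.99 and 5.91 FPKM, and at 16.80 and 19.10 FPKM untreated, against 81.73 and 99.09 FPKM on B12 and 272.03 and 316.33 FPKM untreated in wild type. F15E6.4 (-5.85), T05E12.6 (-3.32), C23H5.8 (-3.15), zig-3 (-2.89) and T07D3.9 (-2.63) also fell in the mutants and stayed called when any of the 4 libraries was left out. pmp-5 and T07D3.9, like C05C10.3 and vwa-8 in the comparison with nhr-68 mutants, were chosen after their values were seen, and the others are among the 15 largest falls.

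A pair of genes was seen in wild type on propionate but was listed at or near 0 in nhr-10 mutants. C09B8.4 was listed at 0 FPKM in both mutant libraries, against 27.53 and 27.83 FPKM in wild type. acdh-2, an acyl-CoA dehydrogenase that is a close copy of acdh-1, was at 0.07 and 0.08 FPKM in the mutants, against 52.28 and 54.63 FPKM in wild type (-5.66 ± 0.426, limma adjusted p = 1.10e-05). Reads shared between such copies are divided by estimate in the authors' counting, so the acdh-2 value is uncertain. Of the 6 acyl-CoA dehydrogenases tested beside acdh-1, acdh-9 was called too, at 41 and 41.75 FPKM in the mutants and 80.67 and 72.53 FPKM in wild type (-0.87 ± 0.128, adjusted p = 0.00173). That makes 2 of the 6 lower (list median -0.35), where 1.59% of all genes were called lower, and 0 with the stage axes in limma.

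The nhr-68 mutants under the same propionate treatment differed from nhr-10 mutants at some of these genes. acdh-2 was at 0.07 and 0.08 FPKM in nhr-10 mutants and 86.03 and 229.25 FPKM in nhr-68 mutants, a difference of -7.04 ± 0.426 (limma adjusted p = 1.25e-06). C09B8.4 was listed at 0 in both nhr-10 libraries and was at 61.22 and 96.79 FPKM in the nhr-68 libraries (adjusted p = 6.88e-08). folt-2 was at 6.06 and 5.72 FPKM in nhr-10 mutants and 58.37 and 91.36 FPKM in nhr-68 mutants (-3.43 ± 0.2, adjusted p = 9.82e-07). These 3 genes stayed called when any library of that comparison was left out, in the fit of the compared libraries alone and with the stage axes. Of the 15 largest falls of nhr-10 mutants, 5 were called lower in nhr-10 than in nhr-68 mutants. These 15 were picked for their low level in the same nhr-10 libraries, which favours lower calls here, so the count is a description and is not read against the 0.417% of all genes called lower. The remaining ones among the 5, C23H5.8 (-1.03, adjusted p = 0.0324) and nas-20 (-2.59, adjusted p = 0.0450), were lost in the fit of the compared libraries alone (0.149 and 0.150). Outside those 15, dhs-25 (-3.19), ugt-53 (-3.38), C05C10.3 (-2.38) and vwa-8 (-1.42) were also called lower in nhr-10 than in nhr-68 mutants. Leave-outs are not given for these calls. At dhs-25, ugt-53 and C05C10.3 the fall of nhr-10 mutants from wild type was smaller (-2.30, -2.01 and -1.76), so nhr-68 mutants lay above wild type there. Of the shunt, alh-8 was called lower in nhr-10 than in nhr-68 mutants (-0.74 ± 0.133, adjusted p = 0.0181), a call lost without either nhr-68 library (adjusted p = 0.140 and 0.128) or without nhr-10 replicate 1 (0.0676). The other 4 shunt genes were not called, with differences of -0.52 (hphd-1) to -1.29 (acdh-1, adjusted p = 0.0726). Both mutants are compared with the same wild type libraries elsewhere, and these values come from the direct comparison of the mutants.

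Over all genes, 1120 of the 15575 tested (7.19%) were called, 872 higher (5.6%) and 248 lower (1.59%) in nhr-10 mutants in limma, and 611 of the higher genes were at least 2-fold up on the log2(FPKM + 1) scale. Higher genes were thus 77.9% of all calls, the share against which the direction within a list stands, and median-ratio scaling gave 897 higher and 394 lower. The libraries of the called genes did not overlap between the genotypes, which was also true of 52.9% of all genes tested. The number of calls turned on single libraries: it was 219 without mutant replicate 2 and 377 without wild type replicate 2, against 910 without wild type replicate 1 and 1558 without mutant replicate 1. Called in all of these fits were 160 of the higher and 46 of the lower genes. Of the 130 called genes that follow by rule or choice, 75 stayed called with each library left out in turn and 55 did not, so a list member given with a difference alone may rest on 1 library. A fit of the 4 libraries alone, with 2 residual degrees of freedom, called 7 genes, 1 higher and 6 lower, and 2531 had an unadjusted p under 0.05 in it. In that fit and in the fit with the stage axes, no list below had more than 1 member called.

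**Figure D2:**
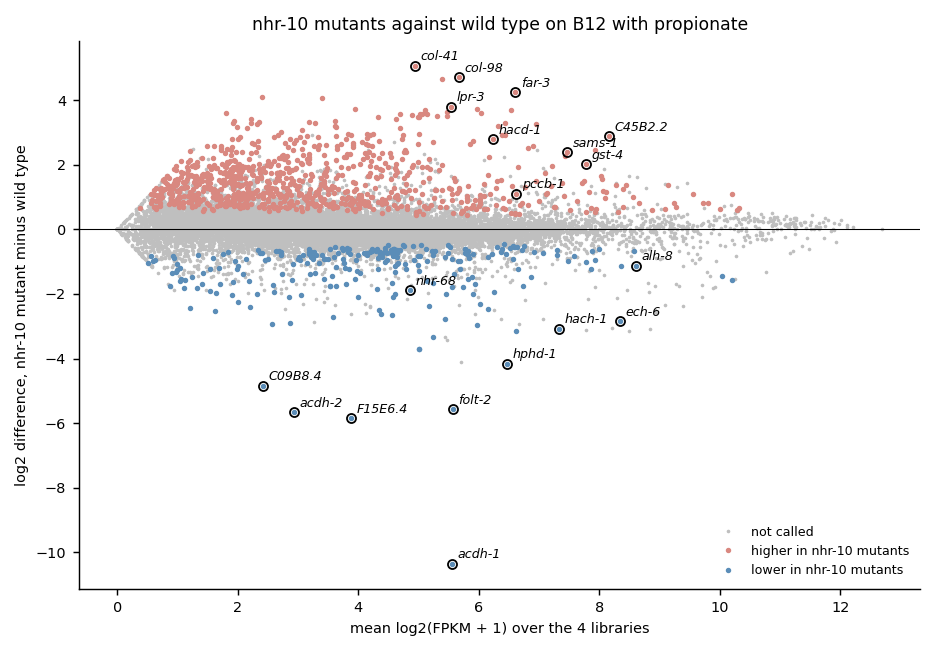
Log2 difference, nhr-10 mutants minus wild type on B12 with propionate, of each of the 15575 tested genes against its mean log2(FPKM + 1) over the 4 libraries, with called genes in red (higher) and blue (lower) and a few named genes circled. acdh-1 lies apart from all others at -10.36, and most called genes (872 of 1120) lie above 0.

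Gene lists that follow larval development differed between the libraries. The 22 moulting genes had 8 members called higher in nhr-10 mutants and none lower (median 1.04, against 0.02 for all genes), where 5.6% of all genes were called higher. The count was 4 without replicate 2 of either genotype and 13 without wild type replicate 1. Their summed level was 1297.6 and 1736.9 FPKM in the mutants, against 1009.4 and 522.7 FPKM in wild type. noah-1, of the apical matrix that precedes a new cuticle, was at 75.24 and 164.50 FPKM in the mutants and 13 and 5.34 FPKM in wild type (3.58 ± 0.529, limma adjusted p = 0.00178). lpr-3, a lipocalin of the same matrix, was at 113.98 and 262.03 FPKM in the mutants and 18.32 and 6.99 FPKM in wild type (3.81 ± 0.483, adjusted p = 6.92e-04). In both genes mutant replicate 2 was the highest and wild type replicate 2 the lowest. Of the 147 cuticle collagens tested, 18 were called higher and 4 lower, but without mutant replicate 1 the count was 17 higher and 42 lower, and without replicate 2 of either genotype 0 were lower. The summed level was 91985 and 57659 FPKM in the mutants and 93986 and 98758 FPKM in wild type. col-41 was at 137.08 and 231.67 FPKM in the mutants and 5.04 and 3.63 FPKM in wild type (5.08 ± 0.306, adjusted p = 1.91e-06), the largest rise of all called genes. The furrow collagen dpy-7, a hypodermis marker, was at 76.28 and 187.12 FPKM in the mutants and 13.38 and 5.74 FPKM in wild type (3.61 ± 0.535, adjusted p = 0.00179). col-98 (4.72), col-176 (4.67), col-103 (3.75), dpy-3 (3.71) and col-42 (3.70) were also among the 15 largest rises. Without propionate, col-41 (3.10 untreated, 3.18 on B12), col-98 (3.65, 4.04), col-176 (3.27, 2.21) and col-103 (2.84, 3.63) were called higher too. dpy-3 and col-42 were not called in every treatment. As whole lists, the moulting genes had a median of 0.29 untreated and -0.31 on B12 alone, and the collagens -0.05 and -0.08. col-126 and col-127 were called lower (-3.69, adjusted p = 0.0359), a call lost without mutant replicate 2 (0.364) or wild type replicate 2 (0.269); the pair had the same values in every library and may be 1 measurement.

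Of 44 hedgehog-related genes, which code for secreted proteins of the cuticle-forming tissues, 8 were called higher and 1 lower (grl-30, -1.53), among them grd-13 (4.07), grd-10 (3.73), wrt-10 (3.65) and wrt-2 (3.14); 4 were called higher without mutant replicate 2. grd-13 and grd-10 were also called higher untreated and on B12 alone, while wrt-10 and wrt-2 were not called in every treatment. Over all genes tested on propionate, 5.6% were called higher and 1.59% lower. The 6 vitellogenins, yolk proteins made at the passage to adulthood, had 0 called by limma (4 with an unadjusted p under 0.05, all lower, and median -2.54) and summed to 1213.2 and 103.8 FPKM in the mutants, against 904.7 and 3518.5 FPKM in wild type. Of 61 sperm genes 0 were called higher and 6 lower in limma (median -0.41), with msp-55 at 156.12 and 131.98 FPKM in the mutants and 255.85 and 254.84 FPKM in wild type, and their summed level was 13728 and 11775 FPKM in the mutants and 16315 and 17056 FPKM in wild type. The 6 calls became 0 without replicate 2 of either genotype and 2 without wild type replicate 1, and that of msp-55 (adjusted p = 0.0176) was lost in each of those 3 fits. All 25 oocyte and germline genes lay below 0 (median -0.47), with 0 called by limma and 3 at an unadjusted p under 0.05. The lists for intestine (14 tested, median 0.06), body wall muscle (12, 0.25) and neurons (14, 0.29) had 0 called as well, and 4, 0 and 3 genes at an unadjusted p under 0.05. Of 10 hypodermis genes 1 was called higher (median 0.51), and of 13 pharynx genes 1 (median 0.33). In these lists 4 and 3 genes were at an unadjusted p under 0.05, all higher. All such counts stand beside 3694 of the 15575 genes tested with an unadjusted limma p under 0.05. On B12 alone the vitellogenins (median 2.84, 2 called higher), sperm genes (0.61, 22) and oocyte and germline genes (1.24, 10) lay the other way, with 0 called lower in limma. There 6.52% of all genes were called higher and 3.15% lower. The untreated medians of these lists were 0.44, -0.37 and 0.42, with 0 called. The part of the stage and tissue lists in the other differences was not tested. In whole animals, fewer cells of a type and less RNA per cell cannot be told apart, and stage was set against other genes only by the fit with covariates.

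**Figure D3:**
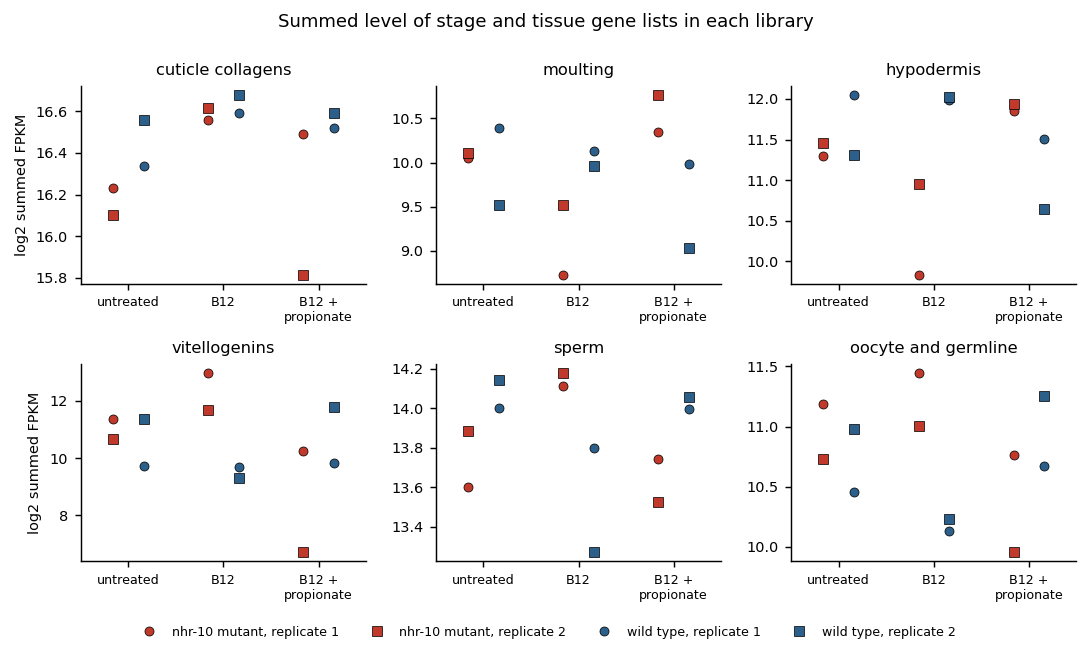
Summed FPKM of 6 gene lists on a log2 scale in each library, nhr-10 mutants (red) left of wild type (blue) in each treatment, with circles for replicate 1 and squares for replicate 2. On B12 with propionate the moulting sum is higher in both mutant libraries than in both wild type libraries, and the vitellogenin sum is lowest in mutant replicate 2 and highest in wild type replicate 2.

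With 2 stage axes, the leading principal components of the collagen, moulting and vitellogenin genes, as covariates, 17 genes were called, 4 higher and 13 lower, and all 17 had been called without them. With the collagen list as first matched the count was 14, 2 higher and 12 lower. Both mutant libraries were above 0 on the second axis (5.13 and 21.5) and both wild type libraries below 0 (-6.50 and -11.3), so the axes run in part along the genotype difference itself. The 13 lower genes were the 5 of the shunt, dhgd-1, folt-2, C09B8.4, C23H5.8, T07D3.9, zig-3, dhs-25 and C31E10.5. The 4 higher genes were gst-4, B0507.8, col-41 and Y19D10B.4. The fall of col-126 and col-127 turned to a rise of 0.62 in that fit. col-41, col-126 and col-127 were themselves among the collagens that made the axes, so their values in that fit do not stand apart from the covariates.

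Several genes of sulphur metabolism were higher in nhr-10 mutants. Of 16 transsulfuration and hydrogen sulphide genes tested, 7 were called higher and none lower (median 0.52, against 0.02 for all genes), where 5.6% of all genes were called higher; 3 were called without mutant replicate 2 and 2 without wild type replicate 2. cysl-2, a cysteine synthase-like enzyme that detoxifies cyanide, was at 236.50 and 242.60 FPKM in the mutants and 43.67 and 14.42 FPKM in wild type (3.20 ± 0.393, limma adjusted p = 5.51e-04). Its relative cysl-3 was at 27.32 and 34.96 FPKM in the mutants and 9.75 and 8.65 FPKM in wild type (1.65 ± 0.194, adjusted p = 4.34e-04). Both stayed called when any of the 4 libraries was left out. cbs-1, a cystathionine beta-synthase, was at 43.12 and 34.85 FPKM in the mutants and 10.74 and 9.42 FPKM in wild type (1.85 ± 0.332, adjusted p = 0.00600), and was at adjusted p = 0.0510 without wild type replicate 2. sqrd-1, the sulphide oxidoreductase (1.69), and rhy-1, a regulator of the hypoxia factor HIF-1 (1.59), were called but were lost without mutant replicate 2 (adjusted p = 0.262 and 0.192) or wild type replicate 2 (0.194 and 0.113). The remaining calls were cysl-1 (0.56), which binds the HIF-1 hydroxylase, and nhr-57 (1.5), a HIF-1 target. cth-1, a cystathionine gamma-lyase, was at 77.72 and 76.40 FPKM in the mutants and 99.31 and 162.17 FPKM in wild type and was not called (-0.71, adjusted p = 0.0835). rips-1, a methyltransferase of the response to thiol stress that is on no list here, was at 48.51 and 50.92 FPKM in the mutants and 18.68 and 11.47 FPKM in wild type (1.69 ± 0.226, adjusted p = 9.46e-04).

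In the methionine and S-adenosylmethionine cycle 2 of 18 genes were called higher and folt-2 lower (median 0.20). Of all genes tested, 5.6% were called higher and 1.59% lower. sams-1, an S-adenosylmethionine synthetase, was at 303.25 and 548.30 FPKM in nhr-10 mutants and 73.43 and 79.07 FPKM in wild type (2.40 ± 0.278, limma adjusted p = 3.97e-04). On B12 alone the level was 202.01 and 182.17 FPKM in the mutants and 190.75 and 267.47 FPKM in wild type, so the genotypes overlapped there, and they overlapped untreated as well, at 311.84 and 337.85 FPKM in the mutants and 321.18 and 250.88 FPKM in wild type. The wild type level on propionate was the lowest of these, and the mutant level on propionate was above that on B12 alone. mthf-1, the methylenetetrahydrofolate reductase, was called higher (0.97, adjusted p = 0.0339), a call lost without mutant replicate 2 (0.368) or wild type replicate 2 (0.230).

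Fat metabolism held called genes in both directions, where 5.6% of all genes tested were called higher and 1.59% lower. far-3, a fatty acid and retinol binding protein, was at 395.35 and 457.99 FPKM in nhr-10 mutants and 19.94 and 22.85 FPKM in wild type (4.25 ± 0.652, limma adjusted p = 0.00214). On B12 alone it stood at 5.10 and 16.75 FPKM in the mutants and 14.16 and 46.45 FPKM in wild type, with overlapping groups. hacd-1, a hydroxyacyl-CoA dehydrogenase, was at 172.28 and 228.41 FPKM in the mutants and 29.56 and 26.17 FPKM in wild type (2.79 ± 0.254, adjusted p = 4.99e-05). acs-2, the acyl-CoA synthetase that feeds mitochondrial oxidation, was at 164.46 and 318.14 FPKM in the mutants and 43.58 and 7.07 FPKM in wild type (3.60 ± 0.758, adjusted p = 0.0135). The wild type libraries differed widely for acs-2, and its call was lost without mutant replicate 2 (0.167) or wild type replicate 2 (0.133). The 20 mitochondrial oxidation genes had 3 called higher and 1 lower (acaa-2, -0.69, a thiolase, lost with any of the 4 libraries left out), with a median of 0.16, and 1 higher without replicate 2 of either genotype. Of 16 peroxisomal oxidation genes 1 was called higher and none lower (6.25% called, against 7.19% of all genes; median 0.01). Of 19 synthesis and desaturation genes 3 were called higher and none lower (median 0.44): the desaturase fat-3 (1.51, adjusted p = 0.00317), the elongase elo-2 (1.03) and the synthase fasn-1 (0.71). elo-2 and fasn-1 were lost without mutant replicate 2 (adjusted p = 0.195 and 0.2) or wild type replicate 2 (0.0735 and 0.0929), and elo-2 without wild type replicate 1 (0.0854). Of 7 lysosomal-type lipases 3 were called higher (lipl-6 1.98, lipl-1 1.39, lipl-5 0.82) and lipl-2 lower, at 12.33 and 10.12 FPKM in the mutants and 63.20 and 36.60 FPKM in wild type (-2.01 ± 0.321, adjusted p = 0.00277). The 3 higher lipases were lost without mutant replicate 2 (adjusted p = 0.0698, 0.0836 and 0.0684), lipl-6 also without wild type replicate 2 (0.0502) and lipl-1 also without wild type replicate 1 (0.0533). The fatty acid binding protein lbp-5 was lower too, at 86.50 and 55.43 FPKM in the mutants and 165.62 and 224.30 FPKM in wild type (-1.46 ± 0.232, adjusted p = 0.00262). In the tricarboxylic acid and glyoxylate cycle 5 of 23 genes were called higher and none lower (median 0.26), led by idh-1 (1.49), and without mutant replicate 2 limma called 0, without wild type replicate 2 it called 1.

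Detoxification genes were also called in both directions. Of 37 glutathione S-transferases tested, 12 were called higher and 1 lower (gst-23, -0.87), with a median of 0.52, against 5.6% of all genes called higher and 1.59% lower. The count was 7 higher without mutant replicate 2 or either wild type library, and gst-23 was lost with any library left out. gst-4, a target of the stress factor SKN-1, was at 513.80 and 387.20 FPKM in nhr-10 mutants and 123.75 and 94.62 FPKM in wild type (2.03 ± 0.211, limma adjusted p = 1.48e-04). It was also higher in untreated mutants, at 126.09 and 126.63 FPKM against 38.09 and 40.87 FPKM in untreated wild type. gst-38 was at 34.53 and 29.78 FPKM in the mutants and 5.94 and 8.48 FPKM in wild type (2.03 ± 0.202, adjusted p = 1.11e-04), and gst-24 (1.99) and gst-16 (1.89) were called with every library left out in turn. Of 49 cytochrome P450 genes 5 were called higher and 1 lower, and of 58 UDP-glucuronosyltransferases 5 higher and 3 lower, with ugt-57 (2.46) and ugt-32 (2.12) up and ugt-53 down (1.49 and 1.47 FPKM in the mutants, 11.48 and 7.04 FPKM in wild type, -2.01 ± 0.244, adjusted p = 5.01e-04). The 29 short-chain dehydrogenases split into 5 higher and 3 lower (dhs-25, -2.30; dhs-21, -1.38; dhs-14, -1.24). Without mutant replicate 2 the P450 genes had 1 called higher and 0 lower in limma, the UDP-glucuronosyltransferases 3 and 1, and the short-chain dehydrogenases 1 and 2. The mitochondrial unfolded protein response, with 9 genes tested, had 0 called by limma and 0 at an unadjusted p under 0.05 (median -0.03), where 3694 of all 15575 genes were. In heat shock 1 of 7 genes was called higher (hsp-12.3, 1.31) and in oxidative stress 1 of 17 (sod-1, 0.59), calls that were lost without mutant replicate 2 or either wild type library.

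**Figure D4:**
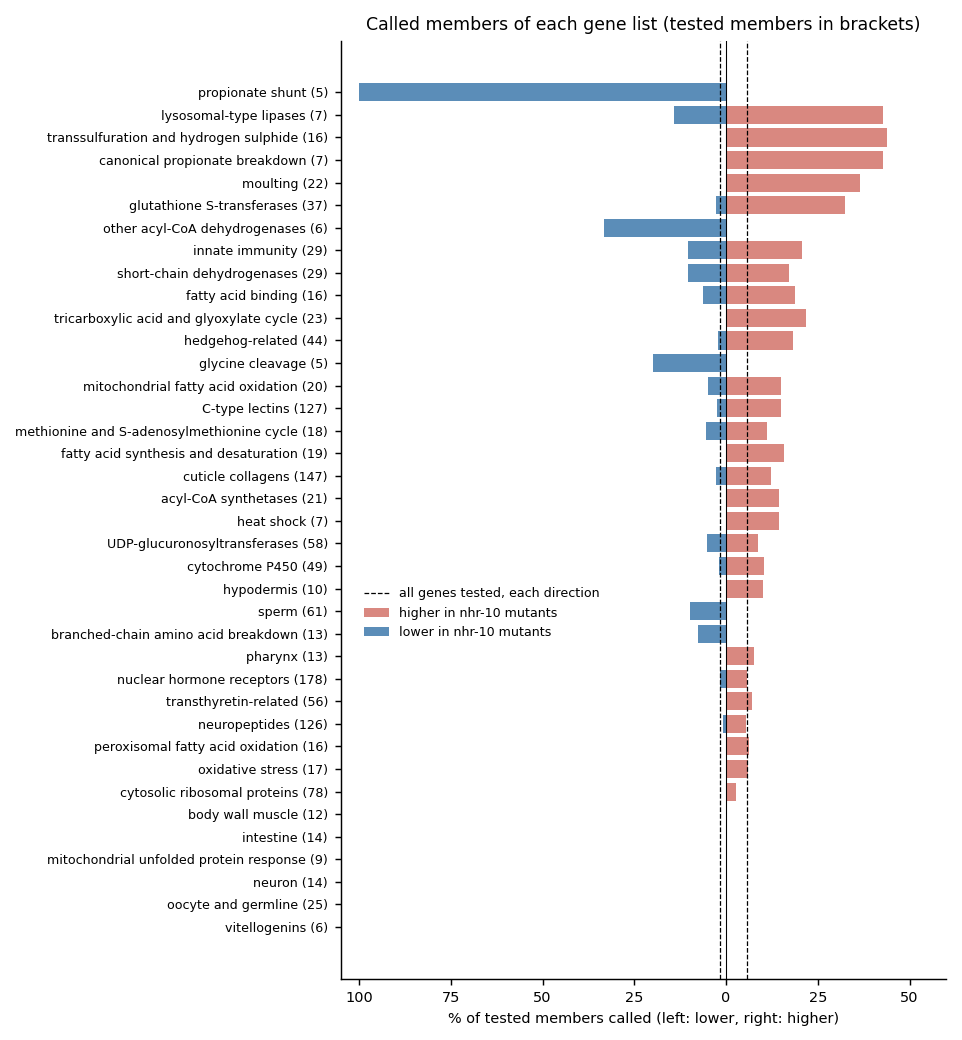
Share of the tested members of each gene list called higher (red, to the right) or lower (blue, to the left) in nhr-10 mutants on B12 with propionate, with the number tested in brackets and dashed lines at the shares over all genes (5.6% higher, 1.59% lower). The propionate shunt is the list with all its members on the lower side. The calls of transsulfuration, canonical propionate breakdown and moulting genes lie on the higher side alone. So do those of several other lists, among them the tricarboxylic acid cycle and fatty acid synthesis.

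Among defence genes, 6 of 29 innate immunity genes were called higher and 3 lower (median 0.50), and 2 and 1 without mutant replicate 2. The higher ones included F55G11.2, at 62.23 and 61.95 FPKM in nhr-10 mutants and 18.52 and 20.92 FPKM in wild type (1.61 ± 0.125, limma adjusted p = 1.39e-05), sysm-1 (2.91), dod-17 (1.21) and dod-24 (1.13), while dod-23 (-1.95), irg-8 (-1.23) and irg-7 (-0.50) were lower. Of 127 C-type lectins, a family of carbohydrate-binding proteins many of which respond to infection, 19 were called higher and 3 lower (median 0.04), but 5 higher without mutant replicate 2 and 12 without wild type replicate 2. clec-60 was at 7.14 and 17.50 FPKM in the mutants and 0.12 and 0.30 FPKM in wild type (3.35 ± 0.362, adjusted p = 2.20e-04), and clec-3 at 13.64 and 10.59 FPKM in the mutants and 1.32 and 0.66 FPKM in wild type (2.73 ± 0.295, adjusted p = 2.20e-04). Both were low in wild type in each library. Beside the counts in these lists, 5.6% of all genes tested were called higher and 1.59% lower. Of 178 nuclear hormone receptors 10 were called higher and 3 lower, a share of 7.30% against 7.19% for all genes, and 1 was called higher without mutant replicate 2, 3 without wild type replicate 2 and 20 without mutant replicate 1. The 3 lower receptors were nhr-68, nhr-101 (-1.43, adjusted p = 0.00209) and nhr-121 (-0.60). nhr-101 is the neighbour of nhr-68 on chromosome V, at 11570476 to 11572549 beside 11573440 to 11575709 in WBcel235. Of 78 cytosolic ribosomal protein genes 2 were called higher (median 0.19), both calls lost without mutant replicate 2 or either wild type library, and of 13 branched-chain amino acid breakdown genes 1 was lower, acaa-2, which is also on the mitochondrial oxidation list. In glycine cleavage gldc-1 was lower (-0.99), a call lost without mutant replicate 2 (0.0617) or wild type replicate 2 (0.0542).

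Several of the higher genes responded to propionate in nhr-10 mutants, and the difference between the genotypes' responses was called for each named here, where 8.49% of all genes were called. C45B2.2, B0507.8, eol-1 and nit-1 were named for their small adjusted p in that same test, so their calls follow from the choice. The responses share the propionate libraries in which these genes were found higher, and are not separate evidence for it. C45B2.2 was at 648.97 and 953.58 FPKM in the mutants and 125.54 and 86.40 FPKM in wild type on B12 with propionate, and at 66.55 and 73.43 FPKM in the mutants and 138.05 and 109.88 FPKM in wild type on B12 alone. Its propionate response was 3.47 (95% interval 2.91 to 4.04) in the mutants and -0.24 (-0.81 to 0.33) in wild type. B0507.8 was at 8.48 and 14.12 FPKM in the mutants and 0.42 and 0.24 FPKM in wild type with propionate, and below 1 FPKM in both genotypes on B12 alone and untreated. eol-1, which has been studied in olfactory learning, was at 4.71 and 7.45 FPKM in the mutants and 0.22 and 0.07 FPKM in wild type with propionate, against 0.29 and 0.29 FPKM in the mutants and 0.15 and 0.00 FPKM in wild type on B12 alone. None of these 3 was called as responding in wild type (limma adjusted p = 0.657, 0.864 and 0.859). B0507.8 and eol-1 were below 1 FPKM in wild type with and without propionate. With the added 1, a fall or a small rise of these genes in wild type could not have been seen. The response of cysl-2 was 2.13 (1.27 to 2.98) in the mutants and -1.41 (-2.26 to -0.56) in wild type, that of sams-1 was 1.08 (0.48 to 1.69) in the mutants and -1.56 (-2.16 to -0.95) in wild type, and that of far-3 5.36 (3.94 to 6.77) in the mutants and -0.26 (-1.68 to 1.15) in wild type. For gst-4 it was 2.11 (1.65 to 2.56) in the mutants and 0.52 (0.06 to 0.97) in wild type. nit-1, a nitrilase family gene, responded by 1.66 (1.19 to 2.12) in the mutants and by -0.89 (-1.36 to -0.43) in wild type. These intervals are not adjusted for the number of genes, and the wild type responses of cysl-2 (adjusted p = 0.109), nit-1 (0.0877) and gst-4 (0.218) were not called. The sams-1 responses were called in the mutants (0.0385) and in wild type (0.0358), and each was lost in 3 of 4 fits with a library left out. The difference between the responses stayed called with each of the 8 libraries left out for C45B2.2, B0507.8, eol-1, nit-1 and sams-1. None of the genes named here kept it in the fit of the 8 libraries alone (adjusted p = 0.0565 for C45B2.2 to 0.145 for gst-4) or with the stage axes (0.266 for C45B2.2 to 0.996 for gst-4), where limma called 0 genes with a higher response in the mutants. For cysl-2 it was lost without mutant replicate 1 on B12 (limma adjusted p = 0.0503), for far-3 without that library (0.0513), wild type replicate 2 on B12 (0.06) or replicate 2 of either genotype on propionate (0.0546 in mutants, 0.0535 in wild type), and for gst-4 without mutant replicate 1 on B12 (0.0781), wild type replicate 2 on B12 (0.06) or wild type replicate 2 on propionate (0.0979).

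**Figure D5:**
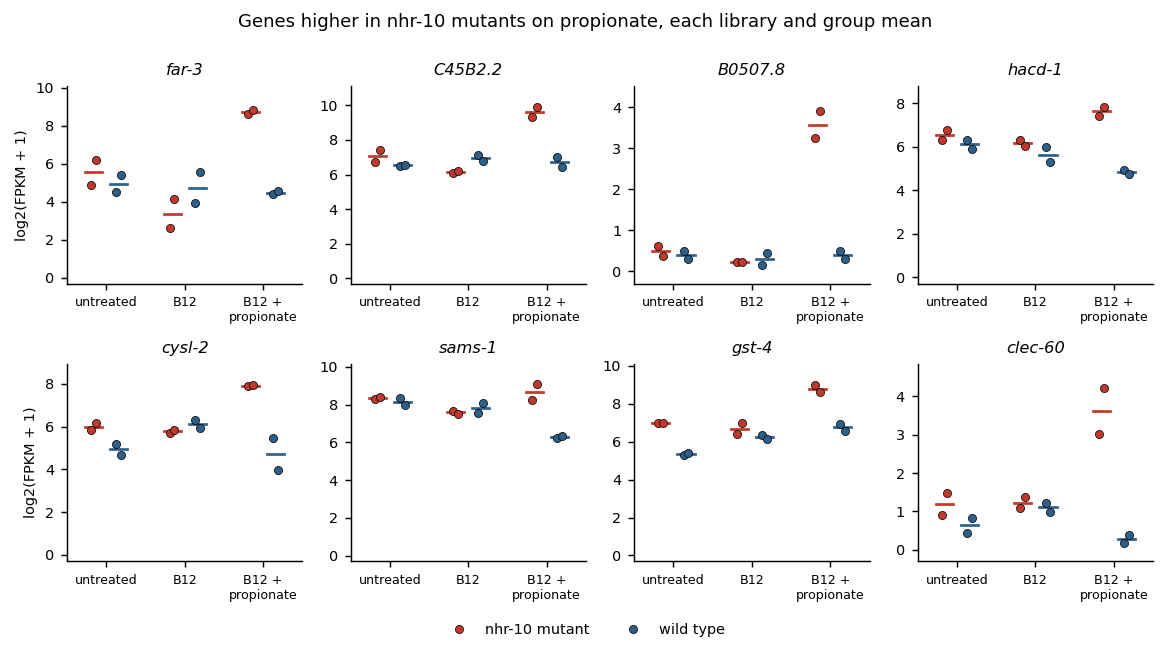
Levels of 8 genes higher in nhr-10 mutants on B12 with propionate, as log2(FPKM + 1) in each library (points) with the mean of the 2 libraries (bars), for nhr-10 mutants (red) and wild type (blue) in each treatment. On B12 with propionate both mutant points lie above both wild type points in every panel. In several panels, among them far-3, C45B2.2, B0507.8 and sams-1, they also lie above the mutants' own points on B12 alone.

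Genotype differences in the libraries without propionate were read beside these. Of the 872 genes higher in nhr-10 mutants on propionate, 793 (90.9%) were also higher in sign in untreated mutants, where 61.6% of all genes were, and 97 were called higher there, which is 11.1% of the 872 and 56.7% of the 171 called higher untreated (1.1% of all genes). On B12 alone 619 of the 872 (71.0%) were higher in sign, where 58.4% of all genes were, and 138 were called, 15.8% of the 872 and 13.6% of the 1016 called higher on B12 (6.52% of all genes). Of the 248 lower genes, 201 (81.0%) were lower in sign untreated, where 38.3% of all genes were, and 110 (44.4%) on B12, where 41.5% of all genes were. In all 3 treatments 60 genes were called higher and 20 lower. The lower ones were led by acdh-1, folt-2, C09B8.4, hphd-1, C23H5.8, dhgd-1 and ech-6, and the higher ones by col-41, col-98, col-176, grd-13, col-103 and grd-10. The untreated comparison called 217 genes (1.39%), 171 higher and 46 lower, or 130 and 88 after median-ratio scaling, and the B12 comparison called 1507 (9.68%), 1016 higher and 491 lower, or 842 and 716 after that scaling. The untreated count was 59 to 87 with 1 library left out, and the B12 count was 103 without mutant replicate 1, with a drop of like size without wild type replicate 2.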

How the data were processed

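The authors deposited FPKM values for 20953 genes in 18 libraries, replicates kept apart, per the file headers. The submitters' processing notes name HISAT, Bowtie2, RSEM and build WBcel235; their settings and any use of strand were not given in the sources used here. FPKM divides by the library's total, and near-identical or overlapping genes share reads by estimate. Depth was estimated from the FPKM steps of genes with 1 transcript. Symbols and coordinates came from Ensembl release 115, where 208 identifiers were not found.

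limma 3.58.1 in R 4.3.3 was fitted to log2(FPKM + 1) of 15575 genes with 9 group means and an intensity trend (9 residual, 3.6 prior degrees of freedom), and checked on simulated data. Alternatives were a pseudocount of 0.1, no filter, median-ratio scaling, the compared groups alone, a replicate block, 2 stage axes (175 genes) and leaving out each library. Named are both receptors, the propionate genes, the 15 largest rises and falls without overlap, up to 4 leading members per list, 10 leading response differences and 9 regulators; any further gene was picked with its values already seen, as was the comparison with nhr-68 mutants. Members and lists were chosen with earlier results of these data known, and genes that encode no collagen were removed from the collagen list after results had been seen, which brought alh-8 under the threshold with the stage axes.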

Additional observations from a re-analysis of the deposited data

Results flagged for a closer look

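The propionate response on B12 differed between nhr-10 mutants and wild type in 1323 genes (8.49% of those tested), 550 with a higher and 773 with a lower response in the mutants, by the limma test of the difference between the responses. Median-ratio scaling gave 754 and 762, so the split between the directions turned on the scaling. The 10 genes with the smallest adjusted p, with the response in mutants minus that in wild type on the log2 scale, had a higher response in the mutants at C45B2.2 (3.71), B0507.8 (3.24), rips-1 (3.07), nit-1 (2.55) and eol-1 (2.34). They had a lower one at acdh-2 (-4.85), acdh-1 (-4.11), C09B8.4 (-3.91), hach-1 (-2.66) and E04D5.5 (-2.12). E04D5.5 was at 10.09 and 8.99 FPKM in nhr-10 mutants and 34.45 and 39.17 FPKM in wild type on propionate, and at 10.73 and 15.89 FPKM in the mutants and 10.64 and 10.55 FPKM in wild type on B12 alone. With the compared groups alone or the stage axes, limma called 0 with a higher and 2 with a lower response. The count of 1323 was 45 to 60 without wild type replicate 2 on propionate (45), mutant replicate 1 on B12 (53), wild type replicate 2 on B12 (58) or mutant replicate 2 on propionate (60).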

How the results depend on the processing

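The propionate comparison (1120 calls) gave 1044 with a pseudocount of 0.1, 1136 with no filter and 1291 with median-ratio scaling. The compared groups alone gave 7 calls and the stage axes 17 (14, of them 2 higher and 12 lower, with the collagen list as first matched, an alternative added after seeing the data), and leaving out a library gave 219 to 1558. The response difference (1323) gave 645 with no filter, 2 with the compared groups alone, 2 with the stage axes and 45 to 2258 with a library left out. The untreated comparison (217) gave 130, 12 and 59 to 87 for the last 3 of these, and the B12 comparison (1507) gave 118, 1 and 103 to 1906. In fits that leave out a library, the remaining one of its group is assumed to vary like the other groups. With the stage axes, col-126 and col-127 (0.62) and ttr-26 (-0.39) turned round. They also did so with the list as first matched (0.70 and -0.44), where ttr-7 did too (-0.01). col-126 and col-127 were among the genes that made the axes, and the cause was not tested. Of the 147 named genes' differences, 24 kept their side of the threshold with the compared groups alone, 34 with the stage axes and 94 without mutant replicate 2. Same-numbered mutant and wild type libraries on propionate did not deviate together (correlation -0.204), so the numbers were not taken to pair them; a replicate block gave 1292 calls, and with the mutant numbers crossed 1225 (chosen after seeing the data). For the response difference, the untreated and the B12 comparisons the block gave 1479, 230 and 1579. The largest such correlation between any groups was 0.563, for wild type untreated and wild type on propionate. The untreated and propionate comparisons may thus be less separate than their use of different libraries implies, which was not tested. Genes near 1 FPKM rest on few fragments, and intervals do not cover differences between cultures.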

Other observations

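Some genes had a like difference from wild type in each treatment. C31E10.5 and C31E10.6, which lie side by side on the X chromosome (13991458 to 13995834 and 13996338 to 13999351, WBcel235), were listed at 0 in both nhr-10 libraries on propionate, on B12 and untreated, against 4.63 and 4.11 FPKM for C31E10.5 and 2.26 and 2.48 FPKM for C31E10.6 in wild type on propionate. ZK1025.3 on chromosome I was lower in nhr-10 mutants by -2.09 on propionate, -2.92 on B12 and -2.79 untreated, and its neighbour bah-1 by -1.38, -1.78 and -1.88. In nhr-68 mutants on propionate the difference from wild type was 0.01 for C31E10.5, 0.29 for C31E10.6 and 0.72 for ZK1025.3, none of them called. The sources used here do not say how often the nhr-10 strain was backcrossed, and another difference of the strain and an effect of nhr-10 cannot be told apart.

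On the X chromosome 8.54% of 2143 tested genes were called higher in nhr-10 mutants on propionate and the median difference was 0.20, against 3.84% to 6.44% and medians of -0.03 to 0.03 on the autosomes. The X median was 0.06 untreated and -0.03 on B12, where the autosomes' medians were 0.09 to 0.14 and 0.09 to 0.10. dpy-27, which codes for a subunit of the complex that lowers X expression in hermaphrodites, was at 26.41 and 30.92 FPKM in nhr-10 mutants and 7.55 and 5.80 FPKM in wild type on propionate (1.96 ± 0.157, limma adjusted p = 1.89e-05) and was also called higher untreated (1.25) and on B12 (0.61). The X median lay above those of the autosomes on propionate only, and a link between dpy-27 and the X values was not tested. The X share was not recounted with a library left out. spig-5 and ins-20 were at 13.64 and 9.05 FPKM and at 4.90 and 3.85 FPKM in nhr-10 mutants on propionate, and both were listed at 0 in both wild type libraries. The call of spig-5 held with any library left out, and that of ins-20 was lost without replicate 2 of either genotype.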
